A study of Homo sapiens with 5 samples.

Results

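The MYC, MAX and MXD network is a set of dimerising transcription factors with a basic helix-loop-helix and leucine zipper region. Its members were taken by symbol and matched to Ensembl identifiers through the GENCODE 29 names, which gave 10 genes (MYC, MYCN, MYCL, MAX, MXD1, MXD3, MXD4, MXI1, MNT and MLX) among the 40263 identifiers in the count tables. All 10 were listed for 501Mel and 9 for Hermes 3A, and those 9 were tested.

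RNA was sequenced from 5 libraries of human cells in which BPTF, the largest subunit of the NURF chromatin remodelling complex, was targeted by lentiviral shRNA (shBPTF), followed by 5 days of selection in puromycin at 3 µg/ml. The 2 libraries of the first group came from 501Mel, a melanoma cell line grown in RPMI with foetal calf serum. The 3 libraries of the second group came from Hermes 3A, a line of immortal melanocytes whose medium also held TPA, cholera toxin, stem cell factor and endothelin 1. All 5 libraries carried shBPTF and no control shRNA libraries were analysed here, so the comparison was between the cell lines after shBPTF, and no value below measures an effect of BPTF loss. Each group was a single line, and cell line, medium and the list of genes counted for each line cannot be told apart. Nothing in the labels said that replicates came from separate cultures, so p-values measure only the spread between these samples, which may be technical. The study lists 2 shRNAs against BPTF, and the labels did not say which one a library carried.

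MYC, MYCN and MYCL act as dimers with MAX, which bind E-box sequences, most tightly CACGTG, and activate transcription of genes for ribosome assembly, nucleotide synthesis and growth. MXD1, MXD3, MXD4, MXI1 and MNT bind MAX in place of MYC, occupy the same sequences and recruit the Sin3 and histone deacetylase corepressor. Several MXD proteins, MXD3 not among them, are known for rising as cells leave the cycle. MLX is a MAX-like partner for MXD1, MXD4, MNT and the glucose-responsive factors MLXIP (MondoA) and MLXIPL (ChREBP). In melanoma MYC has been described as holding off senescence, and BPTF has been described as a MYC cofactor.

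Several of the network genes are themselves preceded by the sequence that the network proteins bind, so the E-boxes of these promoters are shown. RefSeq promoters of GRCh38.p14, from 250 bases before to 50 bases after the transcription start, were at hand for 9 of the 10 genes, all but MYC. CACGTG reads the same on both strands and was found in 3 of these 9 genes (33.3%), against 2396 of 27305 genes with a promoter in the table (8.77%) and 2548 of 35116 promoters (7.26%). These 3 genes were MXD4, MNT and MLX. In the windows below, written 5′ to 3′ on the strand of the gene, the capitals mark CACGTG, which began 238 bases before the start of MXD4 (chr4:2262330-2262359, minus strand), 193 bases before that of MNT (chr17:2401236-2401265, minus strand) and 50 bases before that of MLX (chr17:42567038-42567067, plus strand).
MXD4: gggccgggccacCACGTGctgttgctaagc
MNT: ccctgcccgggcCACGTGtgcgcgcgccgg
MLX: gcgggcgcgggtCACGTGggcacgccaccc
A match describes the letters in the window only, and binding was not measured. The promoters of MYCN, MYCL, MAX, MXD1, MXD3 and MXI1 in the table held no CACGTG in these bases.

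The libraries held 30073071 to 43032311 counts, at which 3 counts amounted to 0.0697 to 0.0998 CPM, the count per 1000000 counts of the library. Replicates differed less than lines, by a root mean square of 0.510 to 0.785 in log2 CPM within a line and 1.97 to 2.05 between lines. Hermes 3A replicate 1 stood further from Hermes 3A replicates 2 and 3 (0.752 and 0.785) than those did from each other (0.510), and results are given without it where a call changed or a fold moved by over 1.5 times. Genes of the melanocyte programme were present in both lines, with all 14 melanocytic markers at 1 CPM or more on average. Their summed level was 14554 to 22302 CPM in 501Mel and 33506 to 34433 CPM in Hermes 3A, mostly TYRP1 and PMEL. Of the 14, 3 were higher in 501Mel and 7 lower at edgeR adjusted p below 0.05, beside 24.2% and 24.0% of all genes. The largest gaps went against the sum. Mean DCT was 1184 CPM in 501Mel and 9.76 in Hermes 3A, and mean SLC45A2 was 913 and 5.89 CPM. The summed fibroblast markers reached 5.07 to 21.1 CPM in 501Mel and 273 to 333 CPM in Hermes 3A, of which nearly all was COL1A2 and FAP, while COL1A1 and DCN stayed at or under 1.05 CPM in Hermes 3A. Keratinocyte markers summed to 32.9 to 34.3 and 43.9 to 48.2 CPM, mostly KRT10, endothelial markers to 0.651 to 0.792 and 9.25 to 12.9 CPM, mostly KDR, and leukocyte markers to 34.6 to 95.3 and 0.528 to 0.808 CPM, mostly CD68, with PTPRC and CD3E at or under 0.0465 CPM. The part of these differences in the results was not tested, and in bulk RNA fewer cells of a type and less RNA per cell cannot be told apart. BPTF itself stood at 65.8 and 57.8 CPM in 501Mel and at 45.8, 51.6 and 54.1 CPM in Hermes 3A (log2 fold change 0.23 ± 0.14 SE, edgeR adjusted p = 0.208), and its knockdown could not be checked without control libraries.

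Of the 9 network genes tested, 4 were lower in 501Mel than in Hermes 3A (MXD4, MNT, MAX and MLX) and 0 were higher, with edgeR's quasi-likelihood test and Benjamini-Hochberg adjusted p below 0.05. MXD4 and MNT, a pair of MAX-binding repressors, were 3.53-fold and 2.04-fold higher in Hermes 3A, and MYC itself was not distinguishable between the lines. Over all genes 48.2% passed the same test, 24.2% higher and 24.0% lower in 501Mel, so 4 of 9 was near the share of all genes. At an unadjusted p below 0.05 the count higher in 501Mel was also 0, as it was by limma, while DESeq2 called 1, MXD3. With a change of at least 2-fold required as well, 2 of the 9 passed, against 34.3% of all genes. The median log2 fold change, 501Mel over Hermes 3A, was -0.55 over the 9 genes and 0.02 over the 17975 genes tested. Without Hermes 3A replicate 1, 5 of the 9 were lower in 501Mel (MAX, MXD1, MXD4, MXI1 and MNT) and 0 were higher, and without 501Mel replicate 2 only MXD4 and MNT were called.

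**Figure D1:**
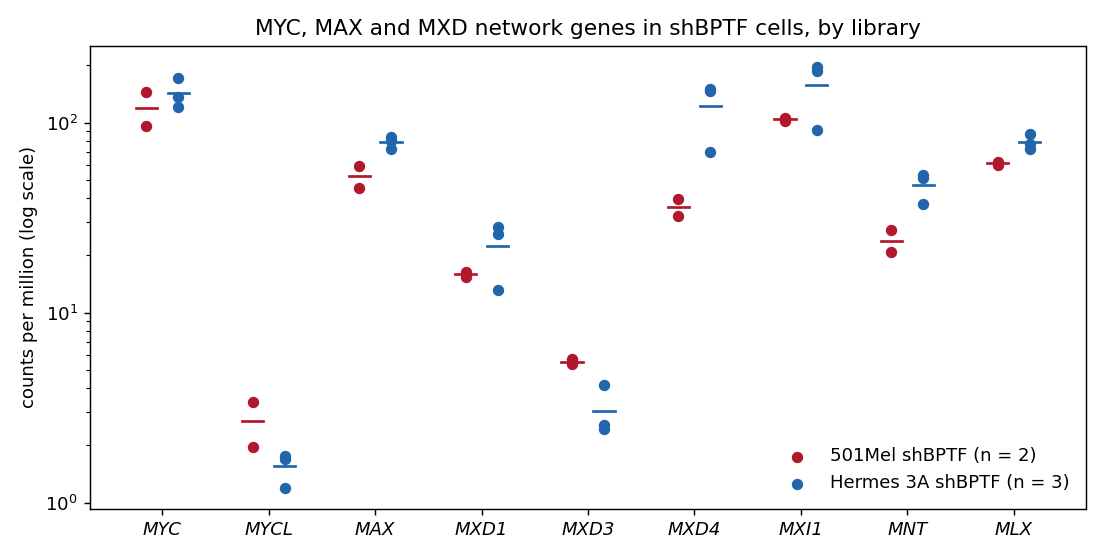
Level of each network gene in CPM (log axis) in the 2 libraries of 501Mel shBPTF (red) and the 3 of Hermes 3A shBPTF (blue), with bars for the group means. MXD4, MNT, MAX and MLX lie lower in both 501Mel libraries than in all 3 Hermes 3A libraries. MYCL and MXD3 lie higher in both 501Mel libraries, though neither passed the test, and MYC, MXD1 and MXI1 overlap. MYCN, with no counts in 501Mel and not listed for Hermes 3A, is not drawn.

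MYC (ENSG00000136997, chr8:127735434-127741434, plus strand, GRCh38), the family member active in most dividing cells, was abundant in every library. It stood at 145 and 95.5 CPM in 501Mel and at 121, 137 and 171 CPM in Hermes 3A. The groups overlapped, since 501Mel replicate 1 was above Hermes 3A replicates 1 and 2. The means were 120 ± 34.8 CPM (SD, n = 2) and 143 ± 25.5 CPM (SD, n = 3), and the log2 fold change of -0.32 ± 0.22 (SE) did not pass the test (edgeR adjusted p = 0.263). Under 14 other fits the log2 fold change of MYC ran from -0.63 to -0.07 and it was never called, with adjusted p from 0.0809 to 0.824.

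MYCN (ENSG00000134323, chr2:15940564-15947007, plus strand), the paralogue of neural tissue and neuroblastoma, had 0 counts in both 501Mel libraries, which allows up to 0.0697 and 0.0792 CPM for counting error alone. It was not listed for Hermes 3A and could not be compared. MYCL (ENSG00000116990, chr1:39895426-39902256, minus strand), the paralogue first found in small cell lung cancer, was scarce, at 3.39 and 1.95 CPM in 501Mel and 1.75, 1.20 and 1.70 CPM in Hermes 3A. Both 501Mel libraries lay above the 3 Hermes 3A libraries, but the log2 fold change of 0.72 ± 0.42 (SE) did not pass the test (edgeR adjusted p = 0.193). Per kilobase of exon, MYCL stood at 0.528 CPM in 501Mel and 0.306 CPM in Hermes 3A, against 40.0 and 47.7 CPM for MYC, so MYC was by far the leading family member measured.

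MAX (ENSG00000125952, chr14:65006174-65102695, minus strand), the partner that MYC and MXD proteins share, stood at 59.4 and 45.0 CPM in 501Mel and at 72.2, 84.1 and 79.7 CPM in Hermes 3A. Both 501Mel libraries lay below all Hermes 3A libraries. The means were 52.2 ± 10.2 CPM (SD, n = 2) and 78.7 ± 5.97 CPM (SD, n = 3), and MAX was lower in 501Mel by a log2 fold change of -0.65 ± 0.16 (SE, edgeR adjusted p = 0.0122). Without 501Mel replicate 2, the lower of that pair, the adjusted p of MAX was 0.0708, and over the 14 other fits it ran from 0.00153 to 0.0708.

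Among the MAX-binding repressors the clearest difference was in MXD4 (ENSG00000123933, chr4:2247432-2262294, minus strand), the MXD protein found in many resting and differentiated tissues. It stood at 32.4 and 39.5 CPM in 501Mel and at 69.9, 147 and 151 CPM in Hermes 3A. The 2 groups were well separated, and Hermes 3A replicate 1 was the lowest of its group. Mean MXD4 was 36.0 ± 5.02 CPM (SD, n = 2) in 501Mel and 123 ± 45.7 CPM (SD, n = 3) in Hermes 3A, a log2 fold change of -1.82 ± 0.32 (SE, edgeR adjusted p = 0.00361). MXD4 was lower in 501Mel in all 14 other fits, by log2 fold changes of -2.10 to -1.57, with a highest adjusted p of 0.0296.

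MNT (ENSG00000070444, chr17:2384060-2401118, minus strand), the repressor that is present alongside MYC in dividing and resting cells, stood at 20.8 and 27.1 CPM in 501Mel and at 37.2, 51.1 and 52.9 CPM in Hermes 3A. Again both 501Mel libraries lay below the 3 Hermes 3A libraries. The means were 24.0 ± 4.41 CPM (SD, n = 2) and 47.1 ± 8.62 CPM (SD, n = 3), and the log2 fold change was -1.03 ± 0.21 (SE, edgeR adjusted p = 0.00622). MNT was also called lower in 501Mel in all 14 other fits, from -1.26 to -0.84, with a highest adjusted p of 0.0419. It shares 1065 exon bases with AC006435.1 on the opposite strand, a gene that was not listed for either line. MXD4, MNT and MLX were the 3 genes with CACGTG in the windows printed above, and MAX, which was also called, had none there. Whether the sequence goes with the levels was not tested.

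MXI1 (ENSG00000119950, chr10:110207605-110287365, plus strand), which encodes the repressor also called MXD2, had the highest CPM of the repressors. It stood at 106 and 102 CPM in 501Mel and 91.9, 196 and 187 CPM in Hermes 3A. CPM take no account of gene length, and per kb of the median transcript length MXD4 was above MXI1 in Hermes 3A. For MXI1 the groups overlapped only through Hermes 3A replicate 1, which lay below both 501Mel libraries. The log2 fold change was -0.66 ± 0.29 (SE, edgeR adjusted p = 0.0997). MXD1 (ENSG00000059728, chr2:69897688-69942945, plus strand), the founding MXD repressor that is induced as cells differentiate, stood at 15.5 and 16.4 CPM in 501Mel and 13.2, 26.1 and 28.1 CPM in Hermes 3A, with a log2 fold change of -0.55 ± 0.31 (SE, edgeR adjusted p = 0.183). MXD1 shares 237 exon bases with SNRNP27 on its own strand, which had 881 to 1340 counts in 501Mel and 443 to 731 in Hermes 3A. Over the 14 other fits the adjusted p of MXI1 ran from 0.00158 to 0.237 and that of MXD1 from 0.00890 to 0.443, and both were called lower in 501Mel without Hermes 3A replicate 1.

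MXD3 (ENSG00000213347, chr5:177301461-177312757, minus strand), the MXD gene that is known to be on in S phase, had a positive fold change. It stood at 5.34 and 5.71 CPM in 501Mel and at 2.57, 4.16 and 2.43 CPM in Hermes 3A, with no overlap. The log2 fold change of 0.80 ± 0.35 (SE) did not pass the test (edgeR adjusted p = 0.0941). MXD3 shares 926 exon bases with RAB24 on its own strand and 1158 with PRELID1 on the opposite strand, and how the counting treated such reads is not given in the sources used here, so its values are uncertain.

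MLX (ENSG00000108788, chr17:42567068-42573239, plus strand), the partner of MondoA, stood at 59.6 and 62.3 CPM in 501Mel and at 86.8, 77.6 and 72.7 CPM in Hermes 3A. Both 501Mel libraries were below the 3 Hermes 3A libraries. The means were 61.0 ± 1.88 CPM (SD, n = 2) and 79.0 ± 7.18 CPM (SD, n = 3), with a log2 fold change of -0.44 ± 0.15 (SE, edgeR adjusted p = 0.0478). The call was a marginal one, since it was lost in 9 of the 14 other fits, each of the 5 that left out 1 library among them, with adjusted p from 0.0419 to 0.184. MLX shares 770 exon bases with PSMC3IP on the opposite strand, which had 495 to 682 counts in 501Mel and 111 to 150 in Hermes 3A.

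**Figure D2:**
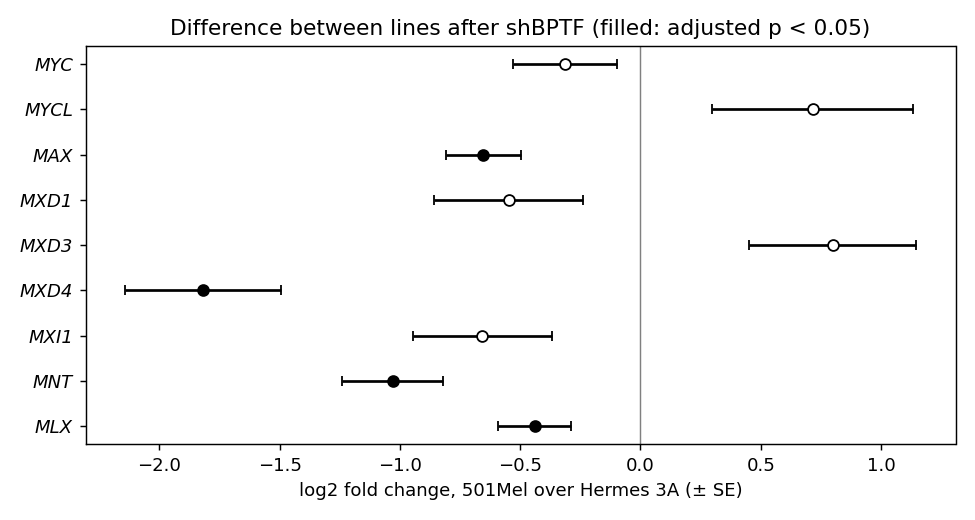
Log2 fold change of each tested network gene, 501Mel over Hermes 3A, with bars of 1 SE and filled points for genes with edgeR adjusted p below 0.05. MXD4 (-1.82) and MNT (-1.03) lie furthest to the left, MAX and MLX are the other filled points, and MYCL and MXD3 lie to the right without passing the test.

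Levels of different genes were set side by side per kilobase of GENCODE 29 exon. The order was the same in both lines, with MYC first, then MXI1, MLX, MAX, MXD4, MNT, MXD1, MXD3 and MYCL. In 501Mel the mean levels were 40.0 CPM per kb for MYC, 22.6 for MXI1, 14.3 for MLX, 11.8 for MAX, 5.10 for MXD4, 2.75 for MNT, 2.50 for MXD1, 1.07 for MXD3 and 0.528 for MYCL. Only MNT and MXD1 overlapped among neighbours in that order. In Hermes 3A the corresponding levels were 47.7, 34.4, 18.6, 17.8, 17.4, 5.39, 3.54, 0.592 and 0.306 CPM per kb. There the replicates of neighbours from MYC down to MXD4 overlapped, as did MNT and MXD1, and clear steps lay only between MXD4 and MNT, between MXD1 and MXD3 and between MXD3 and MYCL. The order depends on which transcripts a gene's length is taken from. With the median transcript length in place of all exons, MXI1 was first in 501Mel and MXD4 in Hermes 3A, with MYC in places 2 and 4.

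Because MYC and the repressors share MAX, their levels were also set against each other within each library, as CPM per kb of transcript and not as protein. MYC stood at 3.60 and 3.13 times MAX in 501Mel and at 2.47, 2.41 and 3.17 times MAX in Hermes 3A, so the groups overlapped. With the median transcript length in place of all exons the mean ratio was 1.22 in 501Mel and 0.970 in Hermes 3A, so whether MYC stood above MAX in Hermes 3A depends on the length used. The 5 repressors together stood at 2.95 ± 0.638 times MAX (SD, n = 2) and 3.41 ± 1.01 times MAX (SD, n = 3). MYC made up 58.5% and 47.7% of the summed level of MYC, MYCL and the 5 repressors in 501Mel and 52.1%, 38.0% and 43.7% in Hermes 3A, again with overlap. With the median transcript length the mean share of MYC was 26.8% and 18.5%. The share of MXD4 did not overlap, at 5.58% and 8.39% in 501Mel and 12.8%, 17.3% and 16.4% in Hermes 3A. MXI1 held a like mean share in both, 30.6% and 30.8%, while MNT held 3.77% and 5.01%, MXD1 3.40% and 3.17%, MXD3 1.46% and 0.559% and MYCL 0.696% and 0.300%.

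**Figure D3:**
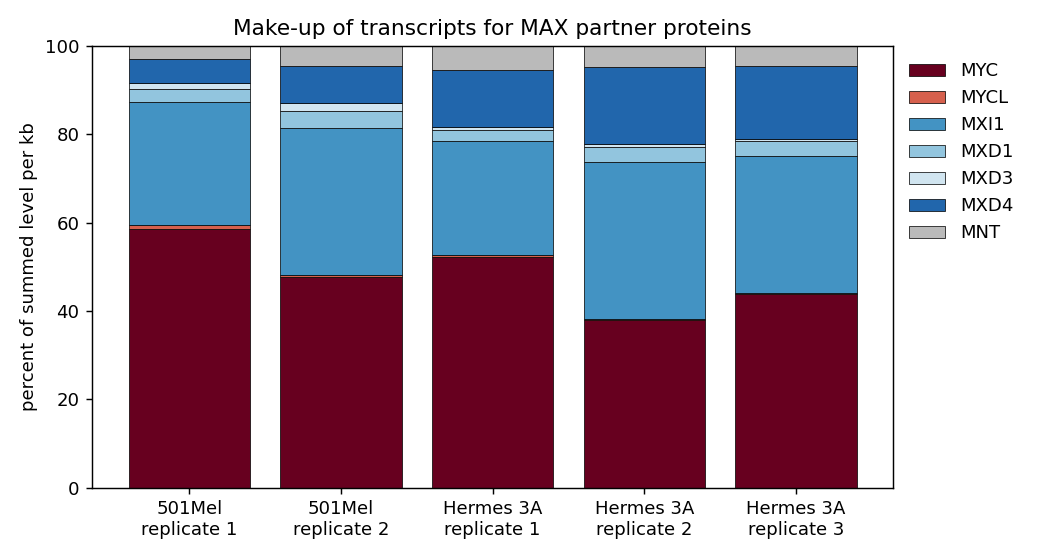
Make-up of the transcripts for proteins that pair with MAX, as percent of their summed CPM per kb of exon, one bar per library. With this length MYC and MXI1 take most of every bar, while with the median transcript length MXD4 was the highest partner in Hermes 3A (197 CPM per kb, against 179 for MXI1 and 105 for MYC), and here the MXD4 segment is 5.58% to 8.39% in the 501Mel bars and 12.8% to 17.3% in the Hermes 3A bars.

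The Sin3 corepressor through which MXD proteins act, and the other factors of the wider network, were called about as often as all genes. Of 11 tested genes of this list, 4 were higher in 501Mel and 2 lower, beside 24.2% and 24.0% of all genes, and their median log2 fold change was 0.25 beside 0.02. SIN3A, the scaffold that MXD proteins bind, stood at 84.3 and 64.1 CPM in 501Mel and at 42.7, 39.3 and 35.3 CPM in Hermes 3A (log2 fold change 0.86 ± 0.18 SE, edgeR adjusted p = 0.00633). HDAC2, a deacetylase of the same complex, stood at 226 and 196 against 123, 116 and 104 CPM (0.82 ± 0.15, edgeR adjusted p = 0.00384). The 2 lower genes were MLXIP (MondoA), at 93.3 and 90.4 against 116, 150 and 158 CPM (-0.68 ± 0.15, edgeR adjusted p = 0.00972), and the Sin3 subunit SAP30, at 14.8 and 12.8 against 18.3, 19.1 and 22.0 CPM (-0.59 ± 0.20, edgeR adjusted p = 0.0427), whose call was lost in 7 of the 14 other fits. The 6 calls fell to 3 without either 501Mel library or without Hermes 3A replicate 2 or 3, and stayed at 6 without Hermes 3A replicate 1. MLXIPL had 1 to 15 counts and was not tested.

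Of 14 cofactors that MYC recruits, 6 were higher in 501Mel and 1 was lower, beside 24.2% and 24.0% of all genes, with a median of 0.37 beside 0.02. The 7 calls in all were near the 48.2% of all genes. RUVBL1, an ATPase of the TIP60 and INO80 complexes, stood at 133 and 148 CPM in 501Mel and at 62.0, 47.9 and 46.8 CPM in Hermes 3A (log2 fold change 1.36 ± 0.19 SE, edgeR adjusted p = 0.00120). KAT5, the TIP60 acetyltransferase, was the 1 lower gene, at 26.9 and 32.4 against 39.8, 42.2 and 41.8 CPM (-0.54 ± 0.16, edgeR adjusted p = 0.0277). The call of KAT5 was lost with the replicate block, without 501Mel replicate 1 and without Hermes 3A replicate 2 or 3, with adjusted p from 0.00869 to 0.150 over the 14 other fits. The calls in the list numbered 4 without Hermes 3A replicate 2 or 3.

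Of 14 genes that set the stability of MYC protein, 6 were higher in 501Mel and 3 lower, beside 24.2% and 24.0% of all genes, with a median of 0.36 beside 0.02. CIP2A, an inhibitor of the phosphatase that marks MYC for degradation, stood at 67.3 and 53.3 CPM in 501Mel and at 9.32, 4.70 and 7.25 CPM in Hermes 3A (log2 fold change 3.01 ± 0.31 SE, edgeR adjusted p = 0.000394). AURKA, the mitotic kinase that shields MYCN from degradation, stood at 139 and 104 against 33.4, 10.4 and 14.6 CPM (2.55 ± 0.48, edgeR adjusted p = 0.00437), and without Hermes 3A replicate 1 its log2 fold change was 3.23. PPP2R5A, a subunit of that phosphatase, was lower, at 47.2 and 42.2 against 85.0, 75.0 and 75.1 CPM (-0.88 ± 0.15, edgeR adjusted p = 0.00334). MYC protein was not measured here.

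Of 35 tested genes that are known to be activated by MYC, 22 were higher in 501Mel (62.9%), 3 were lower (8.57%) and 10 did not pass the test, beside 24.2% and 24.0% of all genes. Their median log2 fold change was 0.68. ODC1, the first enzyme of polyamine synthesis, stood at 244 and 234 CPM in 501Mel and at 50.3, 19.7 and 21.6 CPM in Hermes 3A (log2 fold change 2.88 ± 0.42 SE, edgeR adjusted p = 0.00155), and without Hermes 3A replicate 1 its log2 fold change was 3.48. EIF4A1, the helicase of translation initiation, stood at 811 and 753 against 15.4, 21.9 and 12.5 CPM (5.50 ± 0.25 SE). The neighbouring gene CD68 shows the same contrast, with 4097 and 1303 counts against 5, 11 and 7, and whether such a gap lies in the lines or in how each table was counted cannot be told apart. TERT was lower in 501Mel, at 37.1 and 19.7 against 387, 137 and 219 CPM (-3.21 ± 0.53, edgeR adjusted p = 0.00256). Hermes lines are immortalised with an introduced TERT, some together with CDK4, and CDK4, named after its values were seen, was also among the 3 lower genes (log2 fold change -0.76 ± 0.21 SE, edgeR adjusted p = 0.0199). Whether reads came from an introduced copy was not tested, and this cannot be told apart from a difference between the lines. The call of CDK4 was lost without either 501Mel library and without Hermes 3A replicate 3. The last of the 3, the cyclin gene CCND2, had only 1 and 2 counts in 501Mel and 29, 19 and 6 in Hermes 3A. Without 501Mel replicate 1 the calls in this list numbered 12 higher and 1 lower, and without Hermes 3A replicate 1 they numbered 22 and 2. CACGTG was in the promoter of 18 of the 28 genes of this list that the table held (64.3%), beside 8.77% of all genes with a promoter there. Whether it goes with the difference between the lines was not tested.

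Genes that MYC is known to repress, many of them through MIZ1, were lower in 501Mel in 6 of 10 tested and higher in 0 by edgeR, beside 24.0% and 24.2% of all genes, and 4 did not pass. At an unadjusted p below 0.05, by DESeq2 and by limma the count higher was also 0. The median was -1.19. CDKN1A, the cell cycle inhibitor p21, was the lowest gene of this list. Setting it to its bound at 3 counts in 501Mel (log2 fold change -13.5) left it the lowest, so this could not move the median. CDKN1A had 0 counts in both 501Mel libraries and 33363, 31620 and 34023 in Hermes 3A, and this gap too may lie in the lines or in the tables, which cannot be told apart. THBS1, which encodes the angiogenesis inhibitor thrombospondin, stood at 0.349 and 0.264 CPM in 501Mel and at 72.9, 20.9 and 8.58 CPM in Hermes 3A (log2 fold change -6.88 ± 1.15 SE, edgeR adjusted p = 0.00283). Replicate 1 was the highest of the Hermes 3A libraries for THBS1, and without it the log2 fold change was -5.61. The calls in this list numbered 5 to 7 when each library was left out in turn, all lower in 501Mel. Of the genes activated by MondoA and MLX, TXNIP was not matched and 2 were tested. The arrestin-like ARRDC4 was lower in 501Mel, at 20.7 and 16.2 against 41.3, 47.7 and 94.5 CPM (-1.79 ± 0.37, edgeR adjusted p = 0.00665), and the other, KLF10, did not pass.

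**Figure D4:**
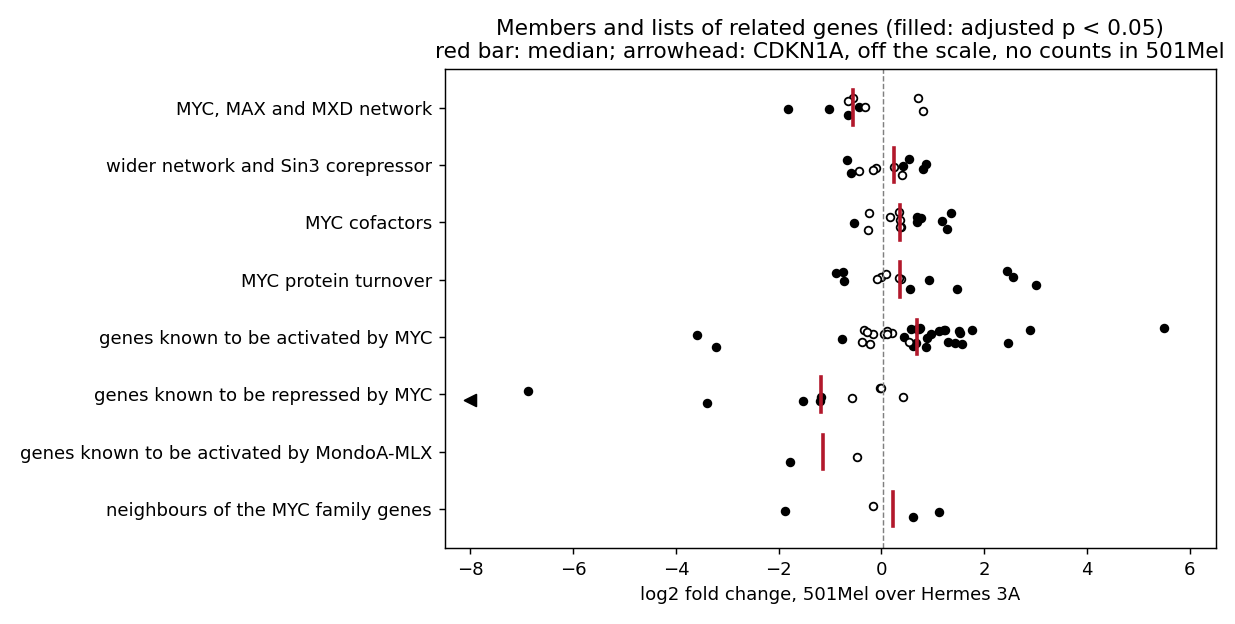
Log2 fold change, 501Mel over Hermes 3A, of each tested gene of the network and of 7 lists of related genes, filled where edgeR adjusted p was below 0.05, with a red bar at each list's median and a dashed line at the median of all genes, 0.02. Genes known to be activated by MYC lie mostly to the right (median 0.68) and genes known to be repressed by it to the left (median -1.19), where an arrowhead stands for CDKN1A, which had no counts in 501Mel.

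Of the 7 genes beside the MYC family loci 4 were tested, 2 higher in 501Mel and 1 lower, beside 24.2% and 24.0% of all genes. PVT1, the long noncoding RNA gene next to MYC, stood at 7.27 and 10.8 CPM in 501Mel and at 24.8, 37.3 and 33.4 CPM in Hermes 3A (log2 fold change -1.87 ± 0.26 SE, edgeR adjusted p = 0.00133). The 2 groups did not overlap for PVT1, as they did for MYC. TRIT1, a tRNA-modifying enzyme gene beside MYCL, stood at 45.4 and 45.6 against 19.3, 22.4 and 18.5 CPM (1.12 ± 0.16, edgeR adjusted p = 0.00137). DDX1, an RNA helicase gene beside MYCN, stood at 439 and 372 against 304, 231 and 223 CPM (0.61 ± 0.20, edgeR adjusted p = 0.0387), while MYCN had no count in 501Mel. The call of DDX1 was lost in 6 of the 14 other fits, among them those without either 501Mel library and without Hermes 3A replicate 2 or 3, with adjusted p from 0.00490 to 0.178. NBAS, also near MYCN, did not pass (-0.16 ± 0.15, edgeR adjusted p = 0.412), and CASC11, MYCNOS and MYCL-AS1 had 0 to 2 counts in every library.

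The 3 genes whose pattern was most like that of MYC, among 3316 tested genes with a mean within 2-fold of its mean, were NAMPT, an enzyme of NAD synthesis (Pearson r = 0.985), ARHGAP5, a GTPase activator (0.978), and TRIM2, a ubiquitin ligase (0.977). These were correlations of log2(CPM + 1) over the 5 libraries, which fall into 2 lines, and are given as a description. None of the 3 passed the test between the lines, which follows largely from picking them by likeness to MYC, itself not called.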

How the data were processed

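RNA was sequenced from 501Mel shBPTF (n = 2) and Hermes 3A shBPTF (n = 3) cells, as total RNA libraries depleted of ribosomal RNA with a duplex-specific nuclease step, which lowers abundant species. The authors deposited raw read counts per Ensembl gene. The submitters' processing notes name CASAVA 1.8, TopHat 1.4.1, Bowtie 0.12.7 and hg19. The counter, strand setting and annotation release are not given in the sources used here. The tables of the lines differed, with 37259 genes listed for 501Mel and 34033 for Hermes 3A, 31029 of them for both. Names and exon lengths came from GENCODE 29, and gene coordinates are those of GRCh38, not of the authors' alignment. Of the identifiers, 36899 of 40263 had a name, and BOP1, TXNIP, KRT5, KRT1 and PECAM1 were not matched.

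CPM were counts divided by the library's total over its listed genes. Genes listed for both lines were filtered with filterByExpr, which left 17975, and fitted with edgeR 4.0.16 (R 4.3.3), TMM factors and the quasi-likelihood test with Benjamini-Hochberg adjustment, and calls were made at adjusted p below 0.05. The SE was the log2 fold change divided by the square root of F. Alternatives used other normalizations and filters, DESeq2 1.42.0, limma 3.58.1 with voom, a replicate block and each library left out, and 1 more was chosen after seeing the data (genes listed in either table). The code was tested on simulated data.

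The genes named were the network genes, BPTF, up to 2 higher and 2 lower genes of each list with the largest called change and no overlap between lines, all neighbours, and the 3 genes most like MYC. Some genes that this rule names are not reported here. NPM1, of the list of genes activated by MYC, is discussed in the study. The network genes and lists were chosen with earlier results of these data known, and are not independent of them.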

Additional observations from a re-analysis of the deposited data

How the results depend on the processing

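In the 14 other fits no tested network gene changed the sign of its fold change, and MXD4 and MNT kept their calls, while MLX lost its call in 9, MAX in 1, and MXI1 gained one in 2 and MXD1 and MXD3 in 1 each. Requiring a change of at least 2-fold left 2 network genes called, both lower in 501Mel, and 14 calls among genes activated by MYC, 3 among cofactors, 4 in protein turnover and 0 in the wider network. Leaving out each library in turn gave 2 to 5 network genes called, 2 to 5 of them lower in 501Mel, 13 to 24 calls among genes activated by MYC, 4 to 8 among cofactors, 3 to 6 in the wider network and 2864 to 4595 genes higher in 501Mel, the fewest without 501Mel replicate 1. With the lines reduced to 1 library of 501Mel, that library was assumed to vary like Hermes 3A. Keeping genes of any count moved the median of all genes to 0.13.

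Replicate numbers were shared between the lines for 2 pairs, and same-numbered libraries deviated together weakly (correlation 0.122), which does not show that the numbers pair the samples. With the replicate block, 7461 genes were called, MAX, MXD4 and MNT among the network genes (3), and 3 genes of the wider network.

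With the median transcript length, MYC stood at 1.22 times MAX in 501Mel and 0.970 times in Hermes 3A. MYC made up 26.8% and 18.5% of the MAX partners. The repressors of Hermes 3A stood at 4.42 times MAX, against 3.41 times with all exons. In 501Mel, with the median transcript length, MAX stood at 71.7 CPM per kb. The repressors there stood at 118 for MXI1, 57.6 for MXD4, 41.3 for MNT, 17.3 for MXD1 and 3.73 for MXD3. MYCN and the 3 scarce neighbours, at 0 to 2 counts, were too low to test at this depth.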
